A study of Mus musculus with 36 samples.

Results

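Transcripts of 10 genes of bone-forming cells were followed in RNA from whole mouse knee joints collected at 24 h. The genes were taken by name from the count table, which lists 55291 genes, and all 10 passed the filter on low counts that left 13823 genes for testing. Sost, Dmp1, Phex and Mepe are known chiefly from osteocytes. Pth1r, Sp7, Alpl, Ibsp, Bglap and Ifitm5 are known from osteoblasts and in part also from osteocytes. Other cells of the joint may express some of these genes too, and the cell source of the counts was not tested. The 9 libraries form 3 groups of 3, which the study's design text calls biological replicates. The ACL_PKCi group comprised knees with injury of the anterior cruciate ligament (ACL) from mice given an inhibitor of protein kinase C (PKC), called inhibitor libraries here. The ACL group comprised injured knees from mice given 0.9% saline, called vehicle libraries, and the Sham group comprised knees without ACL injury. The name and dose of the inhibitor, and the strain, age and sex of the mice, are not given in the sources used here. Vehicle and sham libraries were compared for the injury, and inhibitor and vehicle libraries for the treatment after injury.

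Osteoblasts lay down the collagen matrix of bone and mineralise it, and those that become embedded in it turn into osteocytes, which sense load and signal to the bone surface. Osteocytes secrete sclerostin, the product of Sost, which restrains bone formation by blocking Wnt co-receptors, and they express Dmp1, Phex and Mepe, which act in mineralisation and phosphate balance. Parathyroid hormone acts on both cell types through the receptor encoded by Pth1r and is known to lower Sost. Protein kinase C is one of the kinases that can act downstream of that receptor.

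On mm10, at the positions the count table gives, 3 of the genes lie close together on the plus strand of chromosome 5. These are Dmp1 (chr5:104202613-104214102), Ibsp (chr5:104299171-104311469) and Mepe (chr5:104325329-104338611), members of the family of secreted, integrin-binding phosphoproteins of bone and teeth. Sost (chr11:101962458-101967015), Phex (chrX:157162075-157415312), Pth1r (chr9:110722085-110747145), Sp7 (chr15:102356606-102367182), Alpl (chr4:137741733-137796384), Bglap (chr3:88383501-88384464) and Ifitm5 (chr7:140948958-140950291) lie apart, all on the minus strand. Counts were taken over all exons of each gene.

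Osteocalcin, a product of mature osteoblasts, comes from a cluster of near-identical genes in the mouse. The coding sequences are shown because their likeness limits what a Bglap count means. The cluster lies on the minus strand of chromosome 3. The transcripts used span chr3:88383501-88384433 (Bglap), chr3:88377736-88378699 (Bglap2) and chr3:88368622-88369831 (Bglap3) on GRCm38 (GENCODE). Capitals mark bases that differ from Bglap:
Bglap: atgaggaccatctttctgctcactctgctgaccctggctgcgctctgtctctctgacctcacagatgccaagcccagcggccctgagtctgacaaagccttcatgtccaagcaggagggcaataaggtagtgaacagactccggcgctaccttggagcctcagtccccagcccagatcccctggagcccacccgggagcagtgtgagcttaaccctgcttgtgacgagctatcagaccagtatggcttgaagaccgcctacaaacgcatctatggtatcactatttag
Bglap2: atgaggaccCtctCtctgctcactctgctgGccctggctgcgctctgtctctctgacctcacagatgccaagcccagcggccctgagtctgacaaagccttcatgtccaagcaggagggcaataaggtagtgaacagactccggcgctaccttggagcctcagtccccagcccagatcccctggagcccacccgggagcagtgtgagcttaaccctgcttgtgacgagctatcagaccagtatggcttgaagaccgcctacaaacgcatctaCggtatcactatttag
Bglap3: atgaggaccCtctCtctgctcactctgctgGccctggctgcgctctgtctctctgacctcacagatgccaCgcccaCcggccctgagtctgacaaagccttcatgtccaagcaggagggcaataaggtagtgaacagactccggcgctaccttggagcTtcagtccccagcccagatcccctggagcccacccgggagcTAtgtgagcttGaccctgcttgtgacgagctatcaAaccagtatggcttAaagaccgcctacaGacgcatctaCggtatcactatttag
Over 288 coding bases, Bglap2 differed from Bglap at 4 positions (98.61% identity) and Bglap3 at 13 (95.49%). Of the 341 stretches of 100 bases, the read length, in the Bglap transcript, 192 (56.3%) occurred unaltered in Bglap2 and 0 in Bglap3. Reads that map to several places were counted at each of them, so Bglap and Bglap2 shared counts and their levels cannot be told apart. In the 9 libraries Bglap2 held 0.768 to 0.863 counts per Bglap count.

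The promoters of Sost and Dmp1 are shown because these osteocyte genes had the lowest log2 fold changes of the 10 in inhibitor against vehicle libraries. Each line gives the 250 bases before the RefSeq gene start, where a gene has several the one nearest to its first base in the count table, on GRCm38.p6, and capitals mark the letters TTTAAA and, in Dmp1, AACCACA:
Sost, chr11:101967016-101967265, minus strand: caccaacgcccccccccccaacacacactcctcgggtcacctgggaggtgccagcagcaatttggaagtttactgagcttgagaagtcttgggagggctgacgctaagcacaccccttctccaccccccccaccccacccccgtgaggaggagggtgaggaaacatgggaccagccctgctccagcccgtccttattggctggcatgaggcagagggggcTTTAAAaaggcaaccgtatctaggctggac
Dmp1, chr5:104202367-104202616, plus strand: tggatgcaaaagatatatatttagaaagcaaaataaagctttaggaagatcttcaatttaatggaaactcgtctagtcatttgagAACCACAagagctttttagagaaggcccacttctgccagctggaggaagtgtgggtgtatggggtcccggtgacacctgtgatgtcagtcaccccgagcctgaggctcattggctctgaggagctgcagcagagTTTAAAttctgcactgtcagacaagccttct
TTTAAA, which reads the same on both strands, began 30 bases before the start of Sost and 31 bases before that of Dmp1. It occurred within 40 to 20 bases before the start in 1.22% of 32851 mouse promoters, and anywhere in the 250 bases of 12.1%. AACCACA, a form of the Runx motif searched on both strands, began 165 bases before the start of Dmp1 and occurred in 4.4% of the promoters. In Dmp1 it did not overlap TTTAAA, and it did not occur in the 250 bases of Sost. RefSeq promoters were matched for 9 of the 10 genes, all but Sp7. The letters TATAAA, searched on both strands, stood in the 250 bases of Alpl, Bglap, Ibsp and Mepe and in 12.4% of all promoters. These matches describe the sequence only.

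Total counts were 124 to 202 M per library, of which 91.2% to 98.2% fell on genes of 7SL RNA. A read with several alignments was counted at each, so these totals and shares are of counts and not of reads. Between 1.09 and 4.51 M counts per library lay in protein-coding genes and 1697 to 4854 in the 10 bone genes, each of which was detected in every library. Inhibitor libraries 1 and 2 stood apart, with a 7SL share of 91.5% and 91.2% against 96.7% to 98.2% in the other libraries. They also held the most counts outside the 7SL genes, 11.9 and 11.4 M against 3.28 to 5.25 M, and the highest scaling factors, 1.73 and 3.64 against 0.633 to 1.01. Of the counts outside the 7SL genes, U3 RNA held 53.6% and 26.7%, against 9.14% to 38.9% in the other libraries. Their protein-coding counts were 2.53 and 4.51 M, and those of sham library 1 were 2.75 M, above inhibitor library 1. Values below are normalised counts, that is counts scaled to a common effective library size. The median log2 fold changes of the 10 bone genes are also given without inhibitor libraries 1 and 2. Results for the marker lists, the related lists and the genes nearest in profile are not given without both.

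Among the osteocyte genes, Sost had 31.5, 44.0 and 143 normalised counts in inhibitor knees 1 to 3, 81.4, 225 and 155.5 in vehicle knees and 122, 218 and 123 in sham knees. Inhibitor libraries 1 and 2 were the lowest of the 9, and inhibitor library 3 lay among the vehicle and sham libraries. Dmp1, a matrix protein of osteocytes that takes part in mineralisation, had 70.5, 131 and 395 in inhibitor knees, 389, 494 and 491 in vehicle knees and 226, 447 and 411 in sham knees. Its groups overlapped through inhibitor library 3, which lay just above the lowest vehicle library. Phex, a membrane peptidase whose loss causes phosphate wasting, had 40.5, 41.3 and 153 in inhibitor knees, 106, 107 and 87.3 in vehicle knees and 82.6, 144 and 130.1 in sham knees. The inhibitor group held both the lowest libraries and the highest. Mepe, a matrix phosphoglycoprotein that inhibits mineralisation, had 33.8, 28.8 and 141 in inhibitor knees, 68.1, 160.5 and 120.0 in vehicle knees and 83.7, 212 and 113 in sham knees. Again inhibitor libraries 1 and 2 were the lowest, and the third was inside the range of both other groups.

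Pth1r, the receptor for parathyroid hormone and its related protein, had 84.8, 105 and 183 normalised counts in inhibitor knees, 203, 234 and 229 in vehicle knees and 219.8, 189 and 249 in sham knees. All 3 inhibitor libraries lay below every vehicle and every sham library. Its exons overlap those of Myl3 on the opposite strand, which the strand-specific counting kept apart. Sp7 (osterix), a transcription factor required for osteoblast formation, had 91.5, 139 and 249 in inhibitor knees, 135, 206 and 192 in vehicle knees and 249, 241 and 158 in sham knees. The groups overlapped. Alpl, the phosphatase that removes the mineralisation inhibitor pyrophosphate, had 142, 168 and 317 in inhibitor knees, 214, 378 and 191 in vehicle knees and 210.5, 304 and 439 in sham knees. Its lowest libraries were again inhibitor libraries 1 and 2, with overlap through the third.

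Of the matrix genes, Ibsp (bone sialoprotein), which nucleates mineral, had 367, 739.8 and 1503 normalised counts in inhibitor knees, 1115, 1048 and 756 in vehicle knees and 759, 777 and 1188 in sham knees. The inhibitor group spanned both ends of the 9 values. Bglap had 444, 479.5 and 996 in inhibitor knees, 493, 1031 and 1004 in vehicle knees and 1076, 1384 and 1139 in sham knees. Every vehicle and every inhibitor library lay below the lowest sham library, and the inhibitor and vehicle groups overlapped. Ifitm5, a membrane protein of mineralising osteoblasts, was the least counted, with 6.75, 14.0 and 9.09 in inhibitor knees, 15.0, 35.7 and 15.0 in vehicle knees and 10.5, 18.4 and 9.43 in sham knees. The inhibitor libraries lay below the vehicle libraries but overlapped the sham libraries. Ifitm5 shares exonic bases on its own strand with Gm45717, and reads there were counted for both, so its low values are uncertain.

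**Figure D1:**
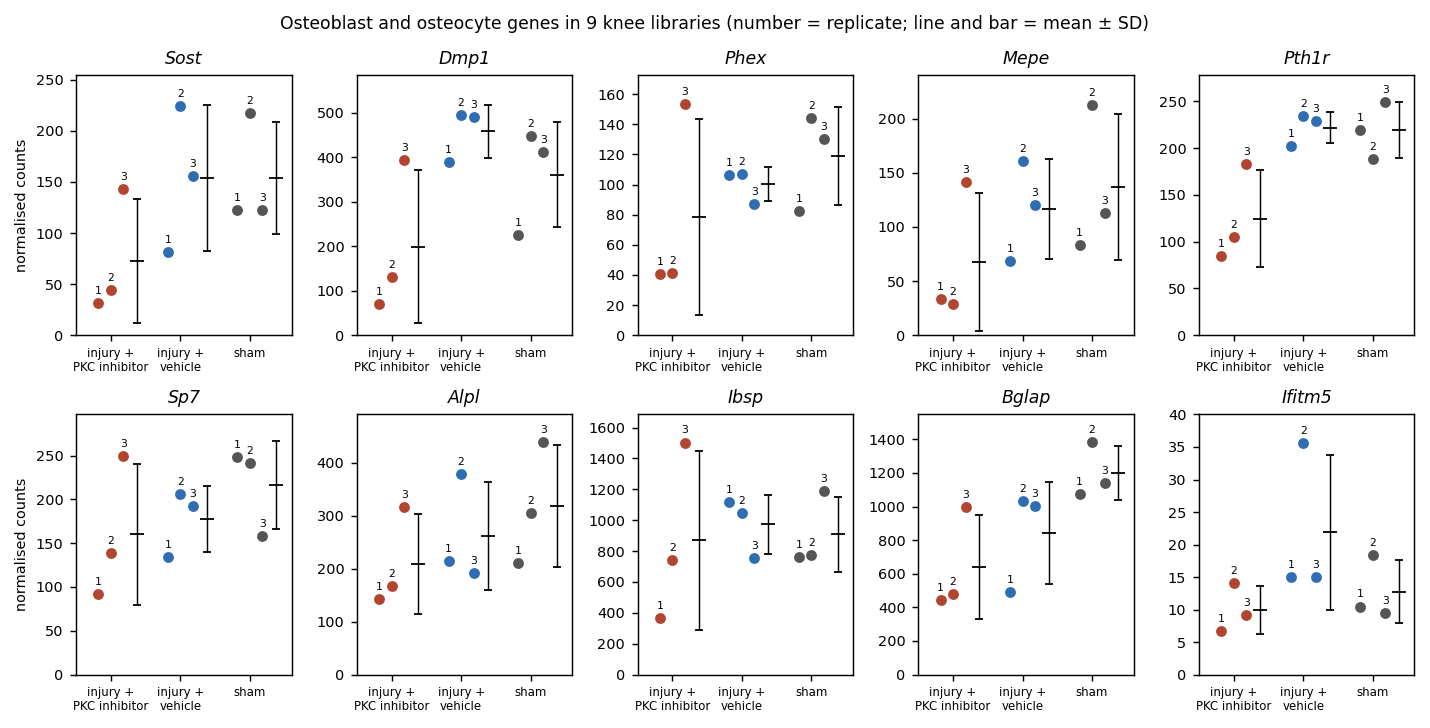
Normalised counts (vertical axes, each from 0) of the 10 bone genes in each library, by group, with the replicate number above each point and the mean ± SD beside the points. Inhibitor libraries 1 and 2 are the lowest points for 8 genes, while inhibitor library 3 is the highest of the 9 for Phex, Ibsp and Sp7.

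Per kilobase of exon, the level in sham libraries was highest for Bglap (1941 ± 264 normalised counts per kb, SD, n = 3), followed by Ibsp (439 ± 117) and Dmp1 (131 ± 43.0). The steps from Bglap to Ibsp and from Ibsp to Dmp1 exceeded these SDs, although the level of Bglap includes reads shared with Bglap2. Mepe, Alpl, Pth1r, Sost and Sp7 followed at 81.1 to 63.6 per kb, with SDs of 10.3 to 40.1. Phex (18.9 ± 5.14) and Ifitm5 (16.7 ± 6.38) were lowest and did not differ beyond their spread. Bglap and Ibsp also led, in that order, in inhibitor knees (1035 and 421 per kb) and in vehicle knees (1364 and 471 per kb). The spread within groups was widest among inhibitor libraries for all of the 10 genes but Ifitm5. Coefficients of variation were 37.3% to 93.6% among inhibitor, 7.61% to 54.6% among vehicle and 13.6% to 49.4% among sham libraries. Those of Ifitm5 were 37.3%, 54.6% and 38.3% in that order.

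At 24 h after injury with vehicle, the fitted levels of the 10 genes lay partly above and partly below those in sham knees, and no change was detectable at this spread between libraries. None of the 10 passed edgeR's quasi-likelihood test in vehicle against sham libraries, where 0.304% of all tested genes did (42 of 13823). The count was also 0 by DESeq2, which called 1.12% of all genes. At an unadjusted p under 0.05 it was 0 by either tool, beside 8.28% of all genes by edgeR and 8.24% by DESeq2. The log2 fold changes ran from -0.51 (Bglap) to 0.78 (Ifitm5), 5 below 0 and 5 above, with a median of -0.11. Over all genes 51.9% were below 0 and the median was -0.02. Bglap had the smallest adjusted p of the 10, 0.751, with a log2 fold change of -0.51 (SE 0.34, 95% interval -1.25 to 0.23). It was the only one of the 10 whose vehicle and sham libraries did not overlap, which held in the lower direction for 8.76% of all genes. The intervals set how large an unseen change could be. That of Pth1r, the narrowest, ran from -0.52 to 0.57, and that of Mepe, the widest, from -1.80 to 1.36. For Sost, a gene known to respond to load, the log2 fold change was 0.0037 with an interval of -1.37 to 1.38.

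With PKC inhibition, all 10 genes had lower fitted levels than with vehicle, but none passed the test. In inhibitor against vehicle libraries 0 of the 10 were called by edgeR and 0 by DESeq2, where edgeR called 0.731% of all genes and DESeq2 2.57%. At an unadjusted p under 0.05 edgeR found 1 of the 10, Pth1r, beside 13.4% of all genes, and DESeq2 found 3, beside 13.3%. The log2 fold changes ran from -1.23 to -0.16, with a median of -0.63 beside 0.04 for all genes, of which 46.2% were below 0. The 4 osteocyte genes had a median of -1.004 and the other 6 one of -0.37. Pth1r averaged 124 ± 51.9 normalised counts in inhibitor libraries and 222 ± 16.9 in vehicle libraries (SD, n = 3 each). Its log2 fold change was -0.86 (SE 0.26, 95% interval -1.40 to -0.31, edgeR adjusted p = 0.148). Dmp1 averaged 199 ± 172 in inhibitor libraries and 458 ± 60.0 in vehicle libraries, a log2 fold change of -1.23 (SE 0.60, interval -2.62 to 0.16, edgeR adjusted p = 0.429). Sost differed by -1.15 (SE 0.61, edgeR adjusted p = 0.47) and Ifitm5 by -1.11 (SE 0.57, edgeR adjusted p = 0.423). Ibsp was nearest to no difference, at -0.16 with an interval of -1.17 to 0.84. Pth1r and Ifitm5 were the genes whose groups did not overlap, in the direction found for 10.4% of all genes.

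Against sham, the inhibitor libraries again had lower fitted levels of all 10 genes, with 0 called by edgeR or DESeq2 where edgeR called 3.95% of all genes and DESeq2 6.4%. This comparison shares its libraries with the other 2 and is no independent check of them. The log2 fold changes ran from -1.15 (Sost) to -0.06 (Ibsp), with a median of -0.74 beside 0.03 for all genes, of which 47.6% were below 0. At an unadjusted p under 0.05 edgeR found 2 of the 10, Bglap and Pth1r, beside 18% of all genes, and DESeq2 found 3, beside 17.5%. Bglap averaged 639.7 ± 309 normalised counts in inhibitor libraries and 1200 ± 163 in sham libraries (SD, n = 3 each). Its log2 fold change was -0.91 (SE 0.34, 95% interval -1.66 to -0.17, edgeR adjusted p = 0.178). Pth1r differed by -0.83 (SE 0.26, interval -1.38 to -0.29, edgeR adjusted p = 0.0841). These were also the 2 genes without overlap, against 11.6% of all genes in that direction. In a joint of many tissues, whether bone cell number, RNA per bone cell or the share of other tissues differed was not tested.

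**Figure D2:**
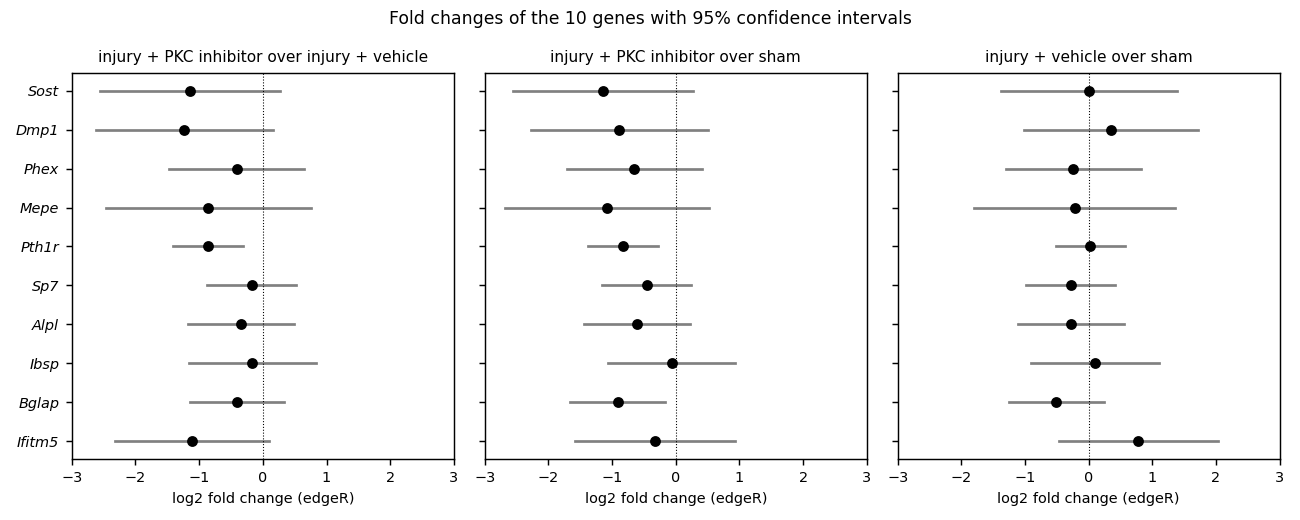
Log2 fold changes (horizontal axis) of the 10 bone genes in the 3 comparisons (panels), drawn as points with 95% intervals as lines from the edgeR fit of all 9 libraries. In both comparisons of inhibitor libraries all points lie below 0, and the intervals that stay below 0 are those of Pth1r in both and Bglap against sham.

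For most of the 10 genes inhibitor library 3 did not share the low levels of the other two. It lay below every vehicle and every sham library for Pth1r and Ifitm5, and below every sham library for Bglap. Inhibitor libraries 1 and 2 were the 2 lowest of the 9 for 8 of the 10 genes, including all 4 osteocyte genes, a pattern met by 7.02% of all tested genes. Sp7 and Ifitm5 were the exceptions. Inhibitor library 1 was the lowest of all for 9 genes and inhibitor library 2 for Mepe. Inhibitor library 3 lay within the sham range for 4 genes. The summed level of the 10 genes was 1312, 1891 and 4089 normalised counts in inhibitor knees 1 to 3, 2820 to 3919 in vehicle knees and 3038 to 3960 in sham knees, so the inhibitor group held both the lowest sums and the highest. The 10 genes made up 0.0691%, 0.108% and 0.226% of the protein-coding counts in inhibitor knees. The shares were 0.152%, 0.214% and 0.174% in vehicle knees and 0.0949%, 0.216% and 0.193% in sham knees. On that scale sham library 1 lay below inhibitor library 2, so the separation of inhibitor libraries 1 and 2 depended in part on the scaling.

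Which inhibitor libraries entered decided the result. Without inhibitor library 3, edgeR called 5 of the 10 genes lower than in vehicle libraries, where 1.68% of all genes were called lower. These were Sost (log2 fold change -2.02, edgeR adjusted p = 0.0297), Dmp1 (-2.18, adjusted p = 0.00645), Phex (-1.30, adjusted p = 0.0424), Mepe (-1.91, adjusted p = 0.0426) and Pth1r (-1.23, adjusted p = 0.0186). Against sham the same 5 genes and Bglap (-1.38, edgeR adjusted p = 0.0155) were called lower, 6 of the 10 beside 3.32% of all genes. The medians over the 10 genes were then -1.14 and -1.29. These calls rest on inhibitor libraries 1 and 2, already seen to be the lowest for most of the 10 genes, and are no independent evidence. Without inhibitor library 1, 0 of the 10 were called in either comparison, with medians of -0.38 against vehicle and -0.44 against sham. Without inhibitor library 2, 0 were called as well, with medians of -0.35 and -0.66. Without inhibitor libraries 1 and 2, the medians were 0.26 against vehicle and 0.04 against sham, and 4 of the 10 log2 fold changes were below 0 in each comparison. Against vehicle, the median of the 4 osteocyte genes was then 0.08 and that of the other 6 was 0.26. That fit assumes that the lone library varies like those of the other groups. The 7SL share and the scaling factors moved with this split, and their part in it was not tested. Without the filter on low counts, edgeR called Pth1r lower than in vehicle libraries (-0.81, adjusted p = 0.0467), and Bglap (-0.87, adjusted p = 0.00529) and Pth1r (-0.79, adjusted p = 0.0378) lower than in sham libraries. That fit called 1.41% of all genes lower against vehicle and 2.37% against sham.

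**Figure D3:**
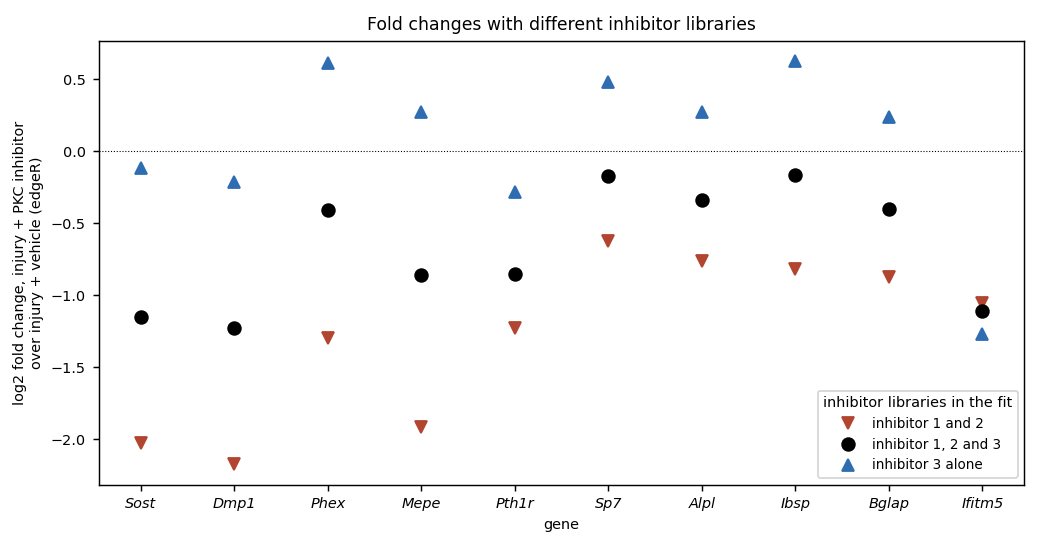
Fitted log2 fold changes (vertical axis) of the 10 bone genes (horizontal axis) for inhibitor against vehicle libraries, with inhibitor libraries 1 and 2, with all 3, and with inhibitor library 3 alone. The medians are -1.14, -0.63 and 0.26 in that order, and for 9 genes the points with libraries 1 and 2 lie lowest, all but Ifitm5.

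Ratios of counts inside a library do not depend on how libraries are scaled. The mean log2 count of the 4 osteocyte genes minus that of the other 6 was -1.31, -1.57 and -0.37 in inhibitor knees, -0.63, -0.51 and -0.35 in vehicle knees and -0.87, -0.13 and -0.58 in sham knees. Inhibitor libraries 1 and 2 were the lowest, and the third lay within the vehicle range. Dmp1 per Ibsp count was 0.192, 0.177 and 0.263 in inhibitor knees, 0.349, 0.472 and 0.650 in vehicle knees and 0.297, 0.575 and 0.346 in sham knees. All 3 inhibitor libraries lay below every other library in this ratio, which was chosen after the values were seen and is given without a test. Sost per Bglap count was 0.0709, 0.0918 and 0.143 in inhibitor knees, 0.165, 0.218 and 0.155 in vehicle knees and 0.114, 0.157 and 0.108 in sham knees. Here the inhibitor libraries lay below the vehicle libraries, and the third lay inside the sham range.

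**Figure D4:**
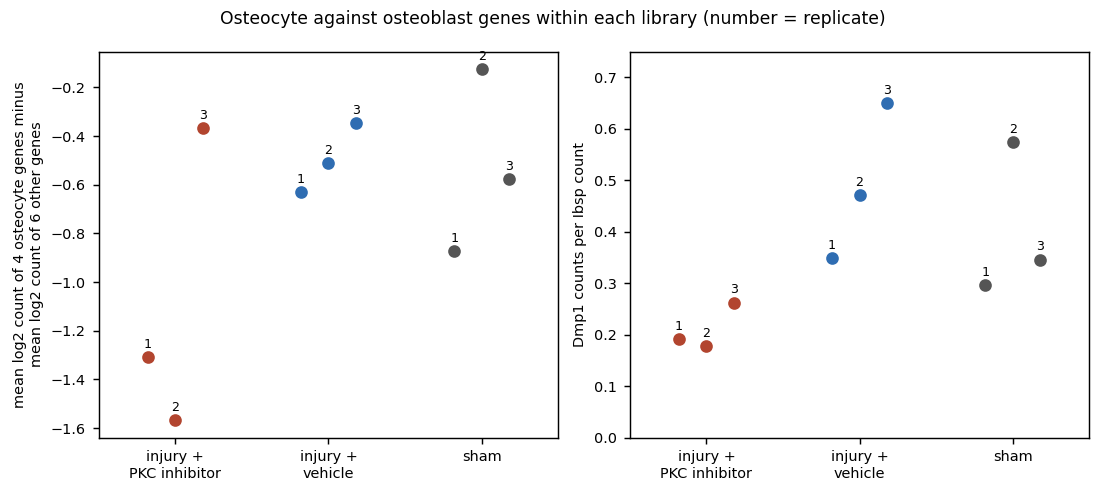
Left, mean log2 count of Sost, Dmp1, Phex and Mepe minus that of the other 6 genes in each library. Right, Dmp1 counts per Ibsp count. Inhibitor libraries 1 and 2 are lowest on the left at -1.31 and -1.57, and all 3 inhibitor libraries lie lowest on the right at 0.177 to 0.263.

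Markers of other tissues in the joint moved too. The summed normalised counts of 8 cartilage genes were 1418, 1227 and 3383 in inhibitor knees, 6997, 5108 and 7900 in vehicle knees and 6920, 5865 and 18992 in sham knees, so every inhibitor sum lay below every other sum. Most of this sum was Col2a1, a chain of type II collagen, with 947, 847 and 2438 in inhibitor knees, 5955, 4240.0 and 6768 in vehicle knees and 5775, 4667 and 16403 in sham knees. The other genes did not all follow it, since inhibitor library 3 lay above at least 1 vehicle library for Chad (310.2 against a lowest vehicle value of 140.3), Comp (280.4 against 242) and Snorc (16.9 against 8.31). Of the 7 that were tested, 3 (Col2a1, Col9a1 and Comp) were called lower in inhibitor than in sham libraries and 0 in either other comparison, beside 2.68% of all genes called lower in inhibitor than in sham libraries. With 1 library left out at a time, Col9a1 was called in 9 of 9 fits, Col2a1 in 3 and Comp in 1. The calls of Col2a1 and Comp were each lost without sham library 1 or 3, vehicle library 1 or 3, or inhibitor library 1 or 2, among others for Comp. The sum of 8 skeletal muscle genes was 32202, 2716 and 5419 in inhibitor knees, 5805 to 7434 in vehicle knees and 9715 to 24658 in sham knees, with inhibitor library 1 highest and inhibitor library 2 lowest. The sum of 8 neutrophil genes was 9859, 18129 and 8206 in inhibitor knees, 8092 to 10436 in vehicle knees and 15314 to 20729 in sham knees. In inhibitor library 2, the highest of its group, S100a8 (7118) and S100a9 (7010) made up most of the sum. Of the 8 genes 5 (Ngp, Ltf, Camp, Mpo and Elane) were called lower in inhibitor than in sham libraries, beside the same 2.68% of all genes, and 1, Ltf, was called lower in vehicle than in sham libraries, beside 0.0217%. With 1 library left out at a time, the inhibitor calls of Ltf, Camp and Mpo held in 9 of 9 fits, that of Elane was lost without sham library 3 and that of Ngp without sham library 1 or 3. The vehicle call of Ltf held in 3 of 9 fits and was lost without any 1 sham or vehicle library. The sum of 7 erythroid genes was 2247 to 4361 in inhibitor knees, 3465 to 8852 in vehicle knees and 4809 to 6512 in sham knees, with 0 called. The sum of 6 genes of synovial and fibrous tissue was 7121 to 8735 in inhibitor knees, 9316 to 12726 in vehicle knees and 5613 to 9842 in sham knees. Prg4 alone had 1095, 3150 and 2318 in inhibitor knees, 6091, 4422 and 6431 in vehicle knees and 963, 545 and 1856 in sham knees. Prg4 was called in no comparison (vehicle against sham log2 fold change 2.33, edgeR adjusted p = 0.135). In vehicle against sham libraries 4 of the 6 genes had log2 fold changes below 0, beside 51.9% of all genes. Of the 6 genes, Pi16 was called lower in inhibitor than in sham libraries, beside the same 2.68% of all genes. With 1 library left out at a time, that call was lost only without sham library 3. The sum of 4 adipocyte genes was 2151, 336 and 375 in inhibitor knees, 332 to 753 in vehicle knees and 595 to 979 in sham knees, with 0 called and inhibitor library 1 highest. No gene of these lists was at 0 in all libraries, and the part of tissue composition in the bone gene levels was not tested.

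**Figure D5:**
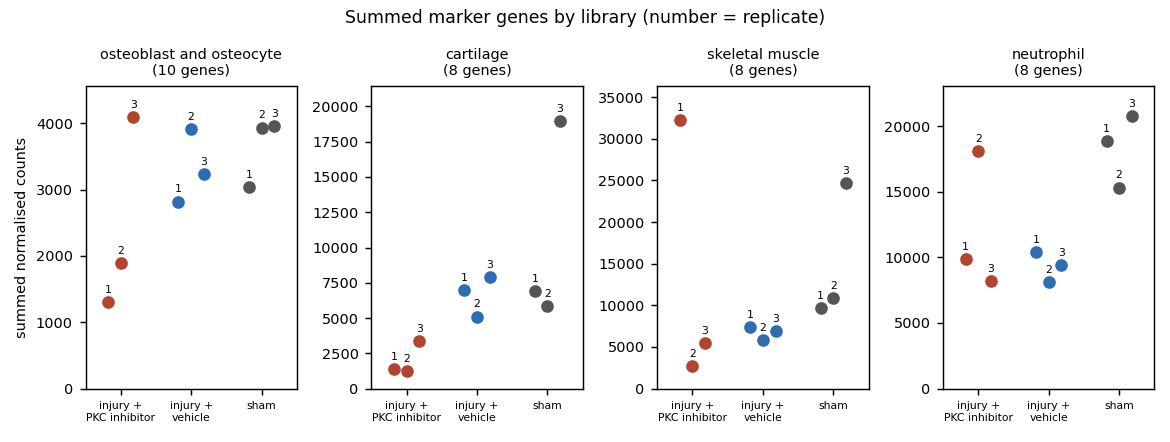
Summed normalised counts of marker genes of bone and of other joint tissues in each library, by group (linear vertical axes from 0), with the replicate number above each point. The cartilage sums of the inhibitor libraries (1227 to 3383) lie below all others, and the bone sums of the inhibitor libraries span 1312 to 4089.

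The wider set of genes that act with these 10 was described from 6 lists holding 68 genes in all, of which 58 were tested. In vehicle against sham libraries 2 of the 58 were called higher and 0 lower, beside 0.282% of all genes called higher, with 22 log2 fold changes above 0 and 36 below and a median of -0.19. In inhibitor against vehicle libraries 0 were called, with a median of -0.15, and in inhibitor against sham libraries the same 2 were called higher, beside 1.27% of all genes, with a median of -0.24. The 2 genes were Pdpn and Lox. Pdpn (podoplanin, E11), a marker of early osteocytes that other cell types also express, had 49.5, 215 and 110.3 normalised counts in inhibitor knees, 219, 138 and 184 in vehicle knees and 11.6, 7.87 and 13.2 in sham knees. It was higher in vehicle than in sham libraries (log2 fold change 4.05, SE 0.55, edgeR adjusted p = 0.0196) and higher in inhibitor than in sham libraries (3.54, edgeR adjusted p = 0.00839). Lox, an enzyme that cross-links collagen, had 317, 452 and 511 in inhibitor knees, 502, 407 and 416 in vehicle knees and 155, 232 and 204 in sham knees. It was higher in vehicle than in sham libraries (1.17, SE 0.23, edgeR adjusted p = 0.0415) and in inhibitor than in sham libraries (1.12, edgeR adjusted p = 0.0152). For both genes the inhibitor and vehicle libraries overlapped, while both injured groups lay above every sham library. With 1 of the 9 libraries left out at a time, Pdpn was called in 4 of 9 fits (log2 fold change 3.86 to 4.24, edgeR adjusted p up to 0.165) and Lox in 3 of 9 (1.02 to 1.30, adjusted p up to 0.269). The calls were lost without any 1 sham library, without vehicle library 1 or 3 and, for Lox, without vehicle library 2. Against sham, each inhibitor call held in 7 of 9 fits and was lost without sham library 1 or 3.

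Among the transcription factors upstream of these genes, Runx2, which acts before Sp7 in osteoblast formation, had 108, 217 and 291 normalised counts in inhibitor knees, 234, 308 and 256 in vehicle knees and 199, 233 and 228 in sham knees, and was called in no comparison. Of the matrix genes, Col1a1, a chain of type I collagen, had 21716, 18357 and 45726 in inhibitor knees, 59264, 61911 and 68285 in vehicle knees and 61922, 64765 and 107820 in sham knees. All 3 inhibitor libraries lay below every other library, yet the gene was not called, with log2 fold changes of -1.14 against vehicle (edgeR adjusted p = 0.246) and -1.45 against sham (edgeR adjusted p = 0.0734). Col1a2, the other chain, was not called either, at -0.77 against vehicle and -1.33 against sham (edgeR adjusted p = 0.0598). Spp1 (osteopontin), made by osteoblasts and also by other cells, had 456, 1097 and 1389 in inhibitor knees, 1613, 1619 and 1816 in vehicle knees and 689.5, 1104 and 973 in sham knees. Every vehicle library lay above all others for Spp1, and it was not called in vehicle against sham libraries (log2 fold change 0.87, edgeR adjusted p = 0.443). Fgf23, the phosphate-regulating hormone that osteocytes secrete, had 0 counts in every library. The osteocalcin paralogue Bglap2 differed by -0.53 in vehicle against sham, -0.48 in inhibitor against vehicle and -1.01 in inhibitor against sham libraries (edgeR adjusted p = 0.147 in the last), and Bglap3 by -0.75, -0.07 and -0.81.

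Over all genes, 51.9% had log2 fold changes below 0 in vehicle against sham, 46.2% in inhibitor against vehicle and 47.6% in inhibitor against sham libraries. The shares called were 0.304%, 0.731% and 3.95%. In the Wnt and sclerostin list, 10, 6 and 10 of 12 tested genes were below 0 in these comparisons. The parathyroid hormone signalling list holds G protein and cyclic AMP pathway genes, without Pth1r. Of its 5 tested genes, 5 were above 0 in inhibitor against vehicle libraries, where Pth1r was below 0. In inhibitor against sham libraries 4 were above 0, with a median of 0.0088. In the mineralisation and phosphate list, 7 of 10 were below 0 in inhibitor against vehicle libraries, with a median of -0.52, and 8 in inhibitor against sham libraries. In each of these lists 0 were called in any comparison. The extremes were Dkk2, a secreted Wnt modulator, at -1.80 in vehicle against sham (edgeR adjusted p = 0.65) and 2.27 in inhibitor against vehicle libraries (edgeR adjusted p = 0.271). The second value rested on inhibitor library 1, since Dkk2 had 46.5, 6.23 and 7.79 normalised counts in inhibitor knees and 1.66, 3.57 and 6.82 in vehicle knees, and without that library the log2 fold change was 0.73. The others were Wnt10b, a Wnt ligand, at -1.44 in inhibitor against vehicle libraries (edgeR adjusted p = 0.338), and Car12, a carbonic anhydrase, at -2.05 in inhibitor against sham libraries (edgeR adjusted p = 0.102).

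The genes whose levels most resembled the 10 over the 9 libraries were ranked by Pearson's r with their mean standardised log2 CPM, as a description without a test. Slc13a5, a citrate transporter, stood first (r = 0.986), with 9.001, 15.6 and 40.2 normalised counts in inhibitor knees, 28.2, 59.4 and 38.2 in vehicle knees and 29.1, 43.3 and 49.0 in sham knees. Terc, the RNA component of telomerase, followed (r = 0.980), then Mir1843b and Scarna3a (both r = 0.968), which had identical counts in every library and cannot be told apart. Fgfr2, a fibroblast growth factor receptor of osteoblasts and other cells (r = 0.950), and Tnc, the matrix protein tenascin C (r = 0.944), completed the 10 nearest together with Tdg-ps2, Eme1, Xrcc6 and Ces2g (r = 0.951 to 0.962). For each, inhibitor libraries 1 and 2 were the lowest of the 9, which follows from ranking by a profile that was lowest there (-1.70 and -1.03). None was called in any comparison. Some had few counts, such as Eme1 with 0.75 and 5.45 and Terc with 4.50 and 5.45 normalised counts in those libraries.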

How the data were processed

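Total RNA from mouse knee joint was depleted of ribosomal RNA and sequenced as paired reads of 100 bases, per the labels' protocols. The deposited table holds raw counts per gene name, made by the authors with featureCounts 2.0.1, for reverse-stranded read pairs on the GENCODE M25 exons, according to the file headers. A read with several alignments added to each, and a read on overlapping genes to each gene. HISAT2 and mm10 are named in the submitters' processing notes. Columns were matched to samples by name. The 27 columns of the other sets match no label and were not used. One marker list of another tissue is not reported here.

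Here, edgeR 4.0.16 (R 4.3.3; filterByExpr, TMM scaling, robust quasi-likelihood F test, two-sided) fitted all 9 libraries together, with Benjamini-Hochberg adjustment over 13823 genes and a threshold of 0.05. A called gene passed it. The SE was taken as the absolute log2 fold change over the square root of its F. DESeq2 1.42.0, RLE factors, no filter, fits on the compared groups, a replicate block and left-out libraries were alternatives. No pair of libraries within a group was a duplicate. Transcript sequences came from GENCODE M21 (GRCm38). Tables and figures used pandas 2.3.3 and matplotlib 3.10.9.

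The 10 genes and all lists were chosen with earlier results of these data known. Beside the 10, named genes were the osteocalcin paralogues, related-list genes that were called or had the highest or lowest fold change, a few fixed landmarks (Runx2, Col1a1, Col1a2, Spp1, Fgf23) and the 10 genes nearest in profile.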

Additional observations from a re-analysis of the deposited data

How the results depend on the processing

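Of 480 values (10 genes, 3 comparisons and 16 alternatives), 433 kept their direction and call, 14 gained a call and 33 changed sign. Each change of sign began from an uncalled value, and the cause was not tested. Per-gene values here are log2 fold changes. The whole-joint libraries, 3 per group, and the low share of counts outside the 7SL genes limit the precision.

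The count of the 10 genes called was 0 in all 3 comparisons with RLE factors, DESeq2, the compared groups only and protein-coding genes only (an alternative chosen after seeing the data). Without the low-count filter 1 was called in inhibitor against vehicle and 2 in inhibitor against sham. With 1 library left out at a time it ran from 0 to 5 and from 0 to 6, and it stayed 0 for vehicle against sham. The medians of the 10 then ran from -1.14 to -0.35 (inhibitor against vehicle), -1.29 to -0.44 (inhibitor against sham) and -0.31 to 0.02 (vehicle against sham). Without inhibitor libraries 1 and 2 the medians were 0.26 against vehicle and 0.0432 against sham.

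Counts over all genes moved more. For vehicle against sham, 42 genes were called, against 155 with DESeq2, 262 without the filter, 291 with the compared groups only and 301 without inhibitor libraries 1 and 2, and 1 to 234 with 1 library left out. For inhibitor against vehicle, 101 were called, against 355, 554, 3 and 20 under the same settings and 0 to 256 with 1 library left out (at 0, without vehicle library 2). For inhibitor against sham, 546 were called, against 885, 1056, 198 and 174, and 141 to 841.

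Same-numbered libraries of different groups did not deviate together (correlations -0.24 to 0.07), and 3 of 9 comparisons of a library with another group had their best match in its own number, so the numbers only name libraries. With a replicate block, edgeR called 24 genes in vehicle against sham, 103 in inhibitor against vehicle and 420 in inhibitor against sham, and 0 of the 10 in each. Sost was -0.10 there for vehicle against sham.

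Signs changed in vehicle against sham with 1 library left out for Sost (-0.36 to 0.34), Mepe (-0.51 to 0.26), Ibsp (-0.012 to 0.34), Pth1r (-0.0753 to 0.12) and Alpl (-0.62 to 0.0261), and with protein-coding genes only for Sost (-0.0205) and Pth1r (-0.0094). With 1 library left out they changed in inhibitor against vehicle for Ibsp (-0.82 to 0.21), Sp7 (-0.62 to 0.10) and Alpl (-0.76 to 0.0169), and in inhibitor against sham for Ibsp (-0.72 to 0.31) and Ifitm5 (-0.71 to 0.0223). Without inhibitor libraries 1 and 2, positive values replaced negative ones against vehicle for Phex (0.61), Mepe (0.27), Bglap (0.24), Ibsp (0.63), Sp7 (0.48) and Alpl (0.28), and against sham for Dmp1 (0.15), Phex (0.39), Mepe (0.0665), Ibsp (0.74), Sp7 (0.21) and Alpl (0.0199).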

Other observations

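The summed normalised counts of 8 osteoclast genes were 733, 1339 and 1720 in inhibitor knees, 1919, 1209 and 1117 in vehicle knees and 1912, 2201 and 2991 in sham knees. Inhibitor knees lay below every sham knee and overlapped vehicle knees, and 1 of the 4 tested, Mmp9, was called lower in inhibitor than in sham libraries, beside 2.68% of all genes. The call held in 2 of 9 fits with 1 library left out, and was lost without inhibitor library 2 or any 1 vehicle or sham library. Mmp9 is also known as a gene of neutrophils, of whose 8 markers 5 were called lower in the same comparison. Which cells the Mmp9 counts came from was not tested.

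Set against Col1a1, the matrix genes gave another order than the normalised counts. Ibsp had 16.9, 40.3 and 32.9 counts per 1000 Col1a1 counts in inhibitor knees, 18.8, 16.9 and 11.1 in vehicle knees and 12.3, 12.004 and 11.02 in sham knees. Bglap had 20.4, 26.1 and 21.8 in inhibitor knees, 8.33, 16.6 and 14.7 in vehicle knees and 17.4, 21.4 and 10.6 in sham knees. Inhibitor knees lay above every sham knee in the Ibsp ratio and above every vehicle knee in the Bglap ratio. They overlapped vehicle knees in the Ibsp ratio and sham knees in the Bglap ratio. The Dmp1 ratio was 3.25 to 8.63 in inhibitor, 6.56 to 7.99 in vehicle and 3.64 to 6.90 in sham knees. That of Sost was 1.45 to 3.12, 1.37 to 3.63 and 1.14 to 3.36, so the groups overlapped for both. Normalised Col1a1 was itself lower in every inhibitor library than in any other, so a higher ratio need not mean more of the other gene. These ratios were chosen after the values were seen and were not tested.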
